A study of Mus musculus with 24 samples.

Results

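The effect of 24 h of 4-hydroxyestrone (4-OHE1) alone was read from 6 RNA sequencing libraries of mouse bone marrow-derived macrophages, 3 from cells given 4-OHE1 and 3 from control cells given its ethanol vehicle. All genes with at least 1 FPKM (fragments per kilobase of transcript, scaled to the depth of the library) in at least 3 of these 6 libraries were compared, which were 10781 of the 24537 genes in the table. The cells were grown from the marrow of 8-week-old female C57BL/6J mice with 20 ng/mL of the growth factor M-CSF, were replated on day 7 and carried no added allele. The protocol text gives 5 mM both as the 4-OHE1 stock and as the concentration in the wells after a 1:1000 dilution, so the dose is uncertain. Other groups of the series used below are 3 libraries each of 4-OHE1 and control at 6 h, and of LPS+4-OHE1 and LPS (lipopolysaccharide, with a stated 100 ng/mL) at 24 h. These groups have no library in common with the 6 compared first. Whether the replicates are separate animals or cultures is not stated. The p-values here set a difference only against the spread of libraries within a group, which may be technical spread.

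4-OHE1 is a catechol metabolite of the estrogen estrone. Catechol estrogens can be oxidised to quinones, which react with the thiol groups of glutathione and of proteins. Cells meet such electrophiles with several programs: KEAP1 releases the transcription factor NRF2, which acts with small MAF partners at antioxidant response elements. HSF1 binds heat shock elements when cytosolic proteins misfold, and kinases that sense stress phosphorylate eIF2 alpha and so raise translation of ATF4, which acts on genes of amino acid supply and redox balance. Bone marrow-derived macrophages divide under M-CSF and hold a low level of type I interferon signalling in culture, so genes of division and of interferon are read in them at rest.

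Depth was 11458036 to 12238808 reads in the 4-OHE1 libraries and 9288704 to 13339193 reads in the control libraries, of which 84.0% to 85.0% and 83.9% to 84.5% lay in genes. A single read in a 2 kb transcript was worth 0.0409 to 0.0436 FPKM with 4-OHE1 and 0.0375 to 0.0538 FPKM in control. Pairs of replicates correlated across genes at 0.985 to 0.990 with 4-OHE1 and at 0.990 to 0.992 in control. Replicate 2 of 4-OHE1 stood somewhat apart from the other 4-OHE1 libraries, with a chi-square per degree of freedom of 6.18 and 10.45 against its partners, where the other 4-OHE1 pair gave 2.43 and control pairs 1.57 to 2.14. The 20 macrophage identity genes summed to 11959 to 13043 FPKM with 4-OHE1 and to 9472 to 10344 FPKM in control. More of them were lower (10) than higher (6), and Lyz2, the most abundant, was among the higher, as given below. Of 10 lymphocyte markers 0 passed the filter, and they summed to 0.0850 to 0.885 FPKM with 4-OHE1 and 0.366 to 1.07 FPKM in control. Of 10 neutrophil markers only S100a8 passed, with 8.79, 7.60 and 10.7 FPKM with 4-OHE1, against 2.33, 2.86 and 3.06 FPKM in control (1.55 ± 0.14), while Camp, Ngp and Retnlg were at 0 in all 6 libraries. The neutrophil list summed to 7.90 to 10.9 FPKM with 4-OHE1 and 2.76 to 3.10 FPKM in control, and its part in the results was not tested. Kit, a marker of mast cells and progenitors, had 0.204, 0.254 and 0.198 FPKM with 4-OHE1, against 1.75, 1.87 and 1.80 FPKM in control (-1.68 ± 0.14). Kit passed the filter through the control libraries only and so was bound to differ. Genes marking dendritic cells summed to 9.49 to 11.7 FPKM with 4-OHE1 and 10.4 to 10.9 FPKM in control, of which Itgax, also expressed by macrophages, made most. The mast cell and granulocyte list summed to 0.838 to 1.16 FPKM with 4-OHE1 and 2.44 to 2.86 FPKM in control. Stromal markers summed to 6.85 to 9.69 FPKM with 4-OHE1 and 7.41 to 12.3 FPKM in control. The erythroid and megakaryocyte list summed to 34.3 to 46.2 FPKM with 4-OHE1 and 34.7 to 43.6 FPKM in control. Its hemoglobin genes were at 0. Pf4 made most of this sum, at 34.0 to 45.8 FPKM with 4-OHE1 and 34.5 to 43.4 FPKM in control, and its source was not tested.

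Differences are given on the scale of log2(FPKM + 0.5), 4-OHE1 minus control, with their standard error, and a gene is said to have risen or fallen where limma gave a Benjamini-Hochberg adjusted p under 0.05 over all genes tested. The added 0.5 understates the change of low genes. By this rule 3400 genes (31.5%) were higher and 2721 (25.2%) lower with 4-OHE1. With libraries scaled by the median of ratios, 2987 (27.7%) were higher and 3079 (28.6%) lower. The genes called either way included 2987 that rose whether scaled or not and 2721 that fell, and 0 were called in opposite directions. The median gene stood at 0.05 as deposited and at 0.00 with scaling, and changes below can be read against that shift. Without 4-OHE1 replicate 2, the library that stood apart, 3186 were higher and 2731 lower. A gene that passes the filter through 1 group alone is bound to differ, and 151 genes passed through the 4-OHE1 libraries only and 141 through the control libraries only. A change of at least 2-fold was seen in 394 higher and 558 lower genes, and of at least 8-fold in 24 higher and 32 lower ones. The groups did not overlap in 7019 genes (65.1%). Since RNA came from whole wells, fewer cells of a kind and less RNA per cell cannot be told apart. With 56.8% of the genes called, the counts of a gene list are to be read beside the 31.5% and 25.2%, and its median beside 0.05. The lists hold 992 genes, of which 877 passed the filter.

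**Figure D1:**
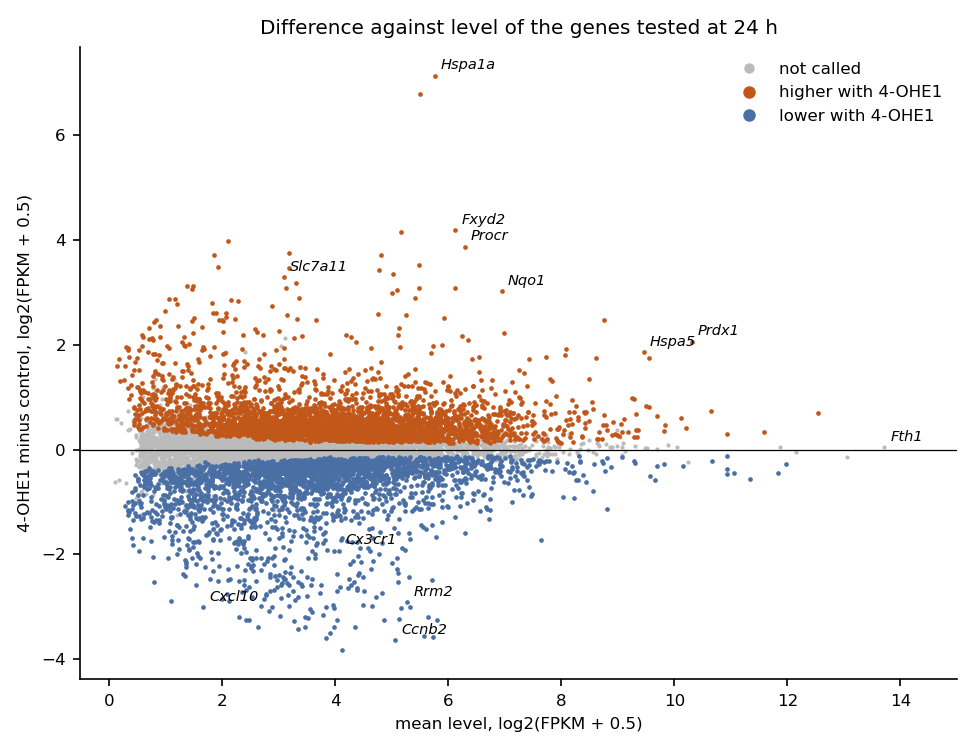
Difference between 4-OHE1 and control at 24 h (vertical axis, log2(FPKM + 0.5)) against mean level of both groups (horizontal axis, log2(FPKM + 0.5)) for the 10781 genes tested, 1 point per gene. The 3400 genes called higher are orange and the 2721 called lower are blue. Hspa1a stands highest at 7.13, and the largest falls end at -3.83.

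The largest rise of all was in the inducible cytosolic heat shock protein 70 gene Hspa1a (mm10 chromosome 17, 34969359 to 34972156), a chaperone gene that is nearly silent in unstressed cells. It had 94.8, 140.1 and 87.2 FPKM with 4-OHE1, against 0.241, 0.244 and 0.270 FPKM in control. Its difference was 7.13 ± 0.16 (adjusted p = 1.20e-07), and it rested on 10704 reads with 4-OHE1 against 24 in control. The authors' deposited table gives 8.69 for the same gene, without an added constant. Its near-identical neighbour Hspa1b (chromosome 17, 34956429 to 34959238) had 80.5, 112 and 76.1 FPKM with 4-OHE1, against 0.240, 0.243 and 0.460 FPKM in control, and the share of reads that each copy received is uncertain. In both genes replicate 2 was the highest of the 4-OHE1 libraries. Both passed the filter through the 4-OHE1 libraries only and so were bound to differ.

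The promoter of Hspa1a is shown because it carries a copy of the heat shock element core. It runs from 250 bases before to 50 bases after the start of the gene (RefSeq, GRCm38.p6, chr17:34972107-34972406, minus strand), with the match to GAANNTTC in capitals, at 104 bases before the start.
Hspa1a: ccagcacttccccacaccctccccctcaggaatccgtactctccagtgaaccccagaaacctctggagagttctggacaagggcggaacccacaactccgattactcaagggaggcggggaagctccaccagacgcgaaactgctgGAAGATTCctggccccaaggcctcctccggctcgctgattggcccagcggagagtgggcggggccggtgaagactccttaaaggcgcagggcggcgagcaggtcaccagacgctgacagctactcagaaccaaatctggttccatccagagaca
Promoters in this window were matched for 7869 of the 10781 genes tested. GAANNTTC, which reads the same on both strands, stood in 5.63% of them and in 7 of the 22 matched promoters of the heat shock list. Among genes higher with 4-OHE1 its share was 5.27%, and among lower ones 5.62%. A match of letters is a description of the sequence only.

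Of the 27 cytosolic heat shock genes, 26 were tested, and 18 rose while 2 fell (3 with scaling, 1 without 4-OHE1 replicate 1 or 3 or control replicate 1 or 2), with a median of 0.37. Of the 26, 3 (Hspa1a, Hspa1b and Hspb1) passed the filter through the 4-OHE1 libraries only. Hsph1, a nucleotide exchange factor for HSP70 proteins, averaged 42.2 ± 4.02 FPKM with 4-OHE1 and 12.9 ± 0.849 FPKM in control (SD, n = 3 each, as for all means that follow), a difference of 1.67 ± 0.08. The small heat shock protein gene Hspb1 had 1.17, 1.91 and 1.42 FPKM with 4-OHE1, against 0, 0.0950 and 0 FPKM in control, with 48 reads against 1, so its difference of 1.90 ± 0.20 depends on the added 0.5. Dnajb9, an HSP40 co-chaperone of the endoplasmic reticulum (ER) that stands on this list, rose by 1.36 ± 0.11. The most abundant member, the constitutive Hsp90ab1, rose less, by 0.66 ± 0.07, and averaged 528 ± 49.8 FPKM with 4-OHE1 and 334 ± 7.49 FPKM in control. Mitochondrial chaperones and proteases rose in 8 of 16 members and fell in 1 (2 without 4-OHE1 replicate 3 or with scaling), with a median of 0.15. Among them Lonp1, a matrix protease, rose by 1.05 ± 0.08 and Hspa9, the mitochondrial HSP70, by 0.66 ± 0.04.

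Genes for glutathione and for quinone reduction, thioredoxin and NADPH supply were mostly raised at 24 h. Of 19 genes of glutathione synthesis and use 17 rose, 16 of them under both scalings, and 1 fell, with a median of 0.85. Of the 19, 1 (Gsta4) passed the filter through the 4-OHE1 libraries only. Of 19 genes of quinone reduction, thioredoxin and NADPH supply 16 rose and 1 fell, with a median of 0.77. Nqo1, which reduces quinones fully and so keeps them from redox cycling, had 230.4, 233 and 196 FPKM with 4-OHE1, against 27.2, 25.6 and 26.7 FPKM in control (chromosome 8, 107388225 to 107403205). The means stood 8.29-fold apart with no overlap, and the difference was 3.02 ± 0.07 (adjusted p = 1.20e-07). Prdx1, a peroxiredoxin and one of the most abundant of these messages, had 2113, 2036 and 1995 FPKM with 4-OHE1, against 471, 484 and 516 FPKM in control (chromosome 4, 116685599 to 116700000). Its means stood 4.18-fold apart (2.06 ± 0.05), and the libraries within each group were close to one another. Prdx6, which also reduces lipid peroxides, rose by 2.22 ± 0.06 and Srxn1, which repairs over-oxidised peroxiredoxins, by 1.52 ± 0.08.

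Slc7a11, the cystine importer that feeds glutathione synthesis, had 15.5, 14.7 and 14.9 FPKM with 4-OHE1, against 1.07, 1.32 and 0.888 FPKM in control (chromosome 3, 50364936 to 50443613). Its difference was 3.29 ± 0.11, and its partner chain Slc3a2 rose by 2.47 ± 0.06 and averaged 734 ± 59.0 FPKM with 4-OHE1 and 132 ± 2.29 FPKM in control. Gss, which completes glutathione, averaged 46.0 ± 5.07 FPKM with 4-OHE1 and 7.18 ± 0.362 FPKM in control (2.59 ± 0.08). The glutathione transferase Gsta4, which clears the lipid aldehyde hydroxynonenal, had 4.14, 4.91 and 4.29 FPKM with 4-OHE1, against 0, 0.180 and 0.113 FPKM in control. Mgst2, a microsomal glutathione transferase, had 61.5, 68.2 and 51.8 FPKM with 4-OHE1, against 8.19, 4.73 and 8.32 FPKM in control, a difference of 3.04 ± 0.20. The limiting steps of the pathway moved less. Gclm, the modifier subunit of glutamate-cysteine ligase, rose by 0.66 ± 0.06, and the catalytic subunit Gclc by only 0.20 ± 0.07 (adjusted p = 0.0333), with 37.0, 41.8 and 35.6 FPKM with 4-OHE1, against 33.5, 32.5 and 33.4 FPKM in control. Its call was lost with scaling (adjusted p = 0.0803), without 4-OHE1 replicate 1 (0.0585) and without any one of the control replicates (0.0736 to 0.105), and without 4-OHE1 replicate 2 its difference was 0.13. The thioredoxin reductase Txnrd1 rose by 0.21 ± 0.05.

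The NRF2 regulators rose in 5 of 7 members, 4 of them under both scalings, and fell in 0. Sqstm1, encoding the autophagy receptor p62 that competes for KEAP1, had 1101, 1296 and 1059 FPKM with 4-OHE1, against 339.5, 338 and 351 FPKM in control, a difference of 1.74 ± 0.08. The small MAF genes Mafk, Maff and Mafg rose by 0.99, 0.63 and 0.47. Nfe2l2, which encodes NRF2 itself, averaged 94.9 ± 3.27 FPKM with 4-OHE1 and 86.8 ± 1.74 FPKM in control (0.13 ± 0.05, adjusted p = 0.0438). This call was lost with scaling (adjusted p = 0.197), without 4-OHE1 replicate 1 (0.16) and without any one of the control replicates (0.0824 to 0.136). Heme breakdown and iron genes rose in 8 of 13 tested members and fell in 3, with a median of 0.39. Blvrb, a biliverdin reductase, had 572, 745 and 494 FPKM with 4-OHE1, against 169, 169 and 193 FPKM in control, and replicate 2 was again the highest. Heme oxygenase Hmox1, the classical NRF2 target that breaks heme down, had 974, 1190.5 and 999 FPKM with 4-OHE1, against 745, 748 and 800.5 FPKM in control (0.46 ± 0.08, adjusted p = 0.00163). The transferrin receptor Tfrc, which brings iron in, was lower (-1.22 ± 0.13), while the iron exporter Slc40a1 was higher (0.69 ± 0.07). Ferritin heavy chain, Fth1, the most abundant of the list, averaged 13569.7 ± 765 FPKM with 4-OHE1 and 13215 ± 445 FPKM in control and did not pass the test (0.04 ± 0.07, adjusted p = 0.672).

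The promoter of Prdx1 is shown as one of the 4 in the list of quinone and thioredoxin genes, of 16 matched, that carry the core of the antioxidant response element, TGACNNNGC on either strand. It covers chr4:116685349-116685648 (GRCm38.p6, plus strand), and the match, here on the opposite strand, is in capitals 133 bases before the start.
Prdx1: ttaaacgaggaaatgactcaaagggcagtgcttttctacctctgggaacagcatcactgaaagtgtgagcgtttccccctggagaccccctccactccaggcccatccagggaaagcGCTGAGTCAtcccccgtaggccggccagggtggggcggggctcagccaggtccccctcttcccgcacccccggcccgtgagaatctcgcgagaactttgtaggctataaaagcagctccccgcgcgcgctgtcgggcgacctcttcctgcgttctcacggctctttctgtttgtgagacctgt
The core stood in 15.1% of the promoters of genes tested, in 16.0% of those that rose and in 15.4% of those that fell. It was found in 4 of 7 NRF2 regulators and 4 of 14 matched glutathione genes.

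**Figure D2:**
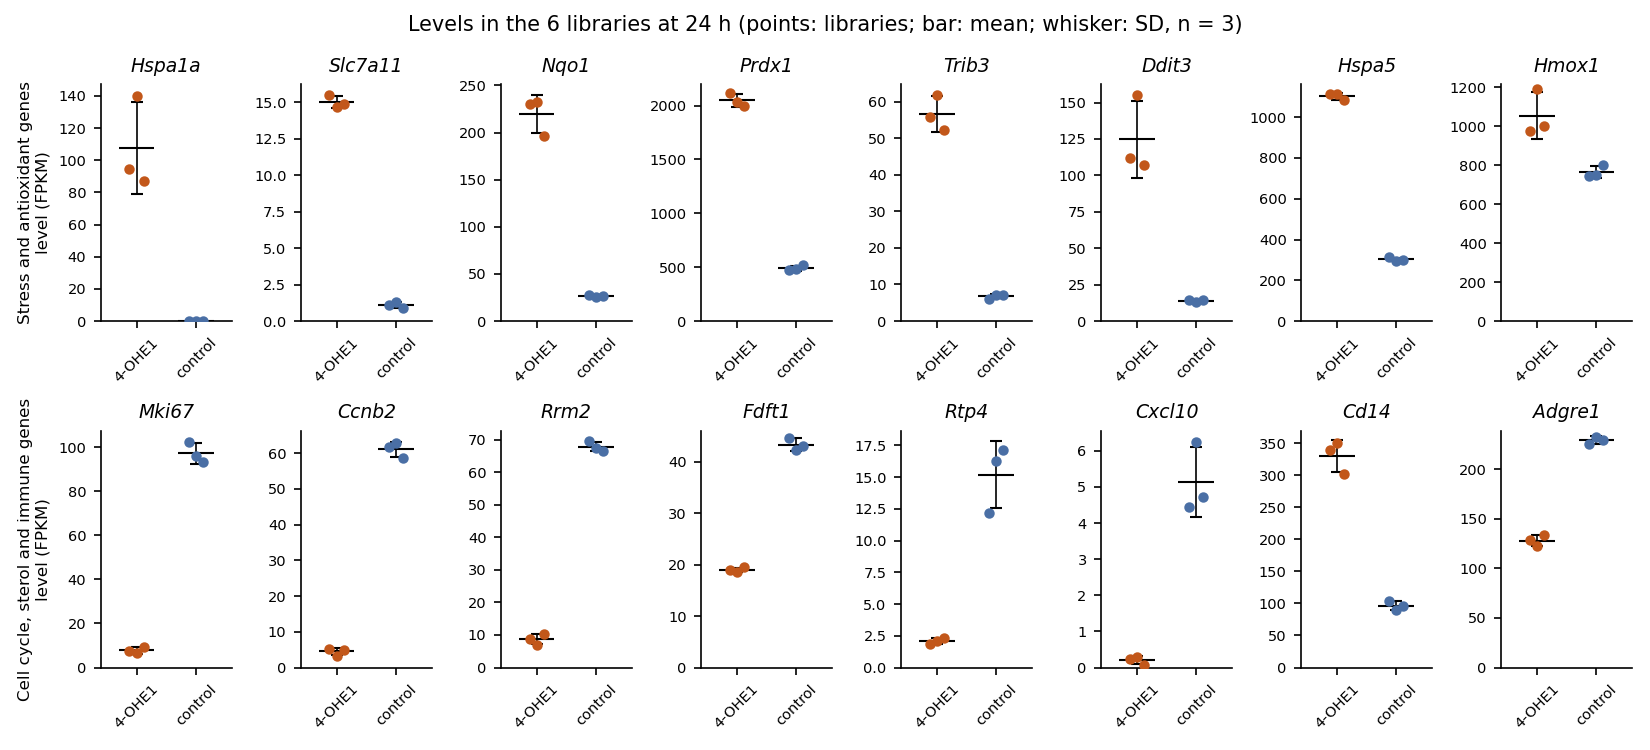
FPKM (vertical axes, each from 0) of 16 genes in the 3 libraries given 4-OHE1 (orange, left) and the 3 control libraries (blue, right) at 24 h. Points are libraries, the bar is the mean and the whisker the SD. The groups do not overlap in any of the 16, nor in 65.1% of all genes tested. Hspa1a and Cxcl10 passed the filter through 1 group alone, so their groups were bound not to overlap. The ratio of the means is nearest to 1 for Hmox1, at 1.38.

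Target genes of ATF4, which serve amino acid supply, redox balance and the control of translation, rose in 28 of 34 tested members and fell in 1 (2 with scaling), with a median of 0.62. The pseudokinase gene Trib3 had 55.8, 61.9 and 52.3 FPKM with 4-OHE1, against 6.16, 7.00 and 7.10 FPKM in control (2.98 ± 0.08). Ddit3, encoding the transcription factor CHOP, had 112, 155 and 107 FPKM with 4-OHE1, against 14.8, 13.2 and 14.3 FPKM in control (3.08 ± 0.13, adjusted p = 9.27e-07). Ppp1r15a, encoding GADD34 that brings a phosphatase back to eIF2 alpha, rose by 3.09 ± 0.13. All 3 were highest in replicate 2 of 4-OHE1. In none did the groups overlap, nor did they in 65.1% of all genes tested. Chac1, which degrades glutathione, rose by 1.55 ± 0.12, the stress-inducible Sesn2 by 1.47 ± 0.07 and Nupr1, a small chromatin protein, by 2.14 ± 0.19. Atf4 itself averaged 287 ± 37.9 FPKM with 4-OHE1 and 158 ± 6.12 FPKM in control (0.86 ± 0.09). Atf3, another factor of this response, had 90.2, 113 and 93.2 FPKM with 4-OHE1, against 71.7, 84.3 and 82.0 FPKM in control, a difference of 0.31 ± 0.10 (adjusted p = 0.0245). Without control replicate 1 its adjusted p was 0.089, and 0.0542 with no filter on low values.

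Slc7a11 is known as a target of ATF4 as well as of NRF2, and its promoter is shown because it holds the ATF4-C/EBP composite element TGATGCAA in both orientations, 66 and 47 bases before the start (chr3:50443564-50443863, GRCm38.p6, minus strand, matches in capitals).
Slc7a11: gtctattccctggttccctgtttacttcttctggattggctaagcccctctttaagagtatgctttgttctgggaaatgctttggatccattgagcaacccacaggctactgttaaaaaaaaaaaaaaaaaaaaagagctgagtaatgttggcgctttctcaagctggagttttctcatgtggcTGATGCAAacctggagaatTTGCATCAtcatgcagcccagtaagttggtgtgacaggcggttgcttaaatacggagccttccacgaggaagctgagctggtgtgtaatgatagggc
This element stood in 0.521% of the promoters of genes tested and in 6 of 28 matched promoters of the ATF4 list. Among genes that rose its share was 0.792%, and among those that fell 0.664%.

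Chaperones of the endoplasmic reticulum rose in 18 of 21 members and fell in 0, with a median of 0.84. Hspa5, encoding the main ER chaperone BiP, had 1113, 1112 and 1084 FPKM with 4-OHE1, against 313, 295 and 300.0 FPKM in control (chromosome 2, 34772090 to 34776529). The treated libraries were close to one another, and the difference was 1.86 ± 0.05 (adjusted p = 1.20e-07). Herpud1, which serves the removal of misfolded ER proteins, rose by 1.84 ± 0.05, the secreted chaperone-like Manf by 1.41 ± 0.06, the chaperone Hyou1 by 1.33 ± 0.04 and Creld2 by 1.21 ± 0.07.

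Proteasome subunits rose together, with 30 of 31 higher, 0 lower and a median of 0.57. Psmd11, a regulatory particle subunit, averaged 61.0 ± 4.93 FPKM with 4-OHE1 and 26.8 ± 0.698 FPKM in control (1.17 ± 0.07), Psmd4, which binds ubiquitin chains, rose by 0.91 ± 0.08 and the catalytic Psmb5 by 0.84 ± 0.10. The summed level of the 31 genes was 3033 to 3516 FPKM in the 4-OHE1 libraries and 2144 to 2253 FPKM in control. Autophagy and lysosome biogenesis genes rose in 10 of 20 members, 9 of them under both scalings, and fell in 3, with Gabarapl1, an adaptor of autophagosome membranes, at 1.19 ± 0.06. Lysosomal hydrolases and membrane proteins went mostly the other way, with 7 of 32 higher, 17 lower and a median of -0.15. Progranulin, Grn, averaged 644 ± 13.8 FPKM with 4-OHE1 and 963 ± 18.5 FPKM in control and was lower (-0.58 ± 0.04). The most abundant of them, cathepsin D (Ctsd), differed by -0.05 ± 0.07 (adjusted p = 0.597).

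**Figure D3:**
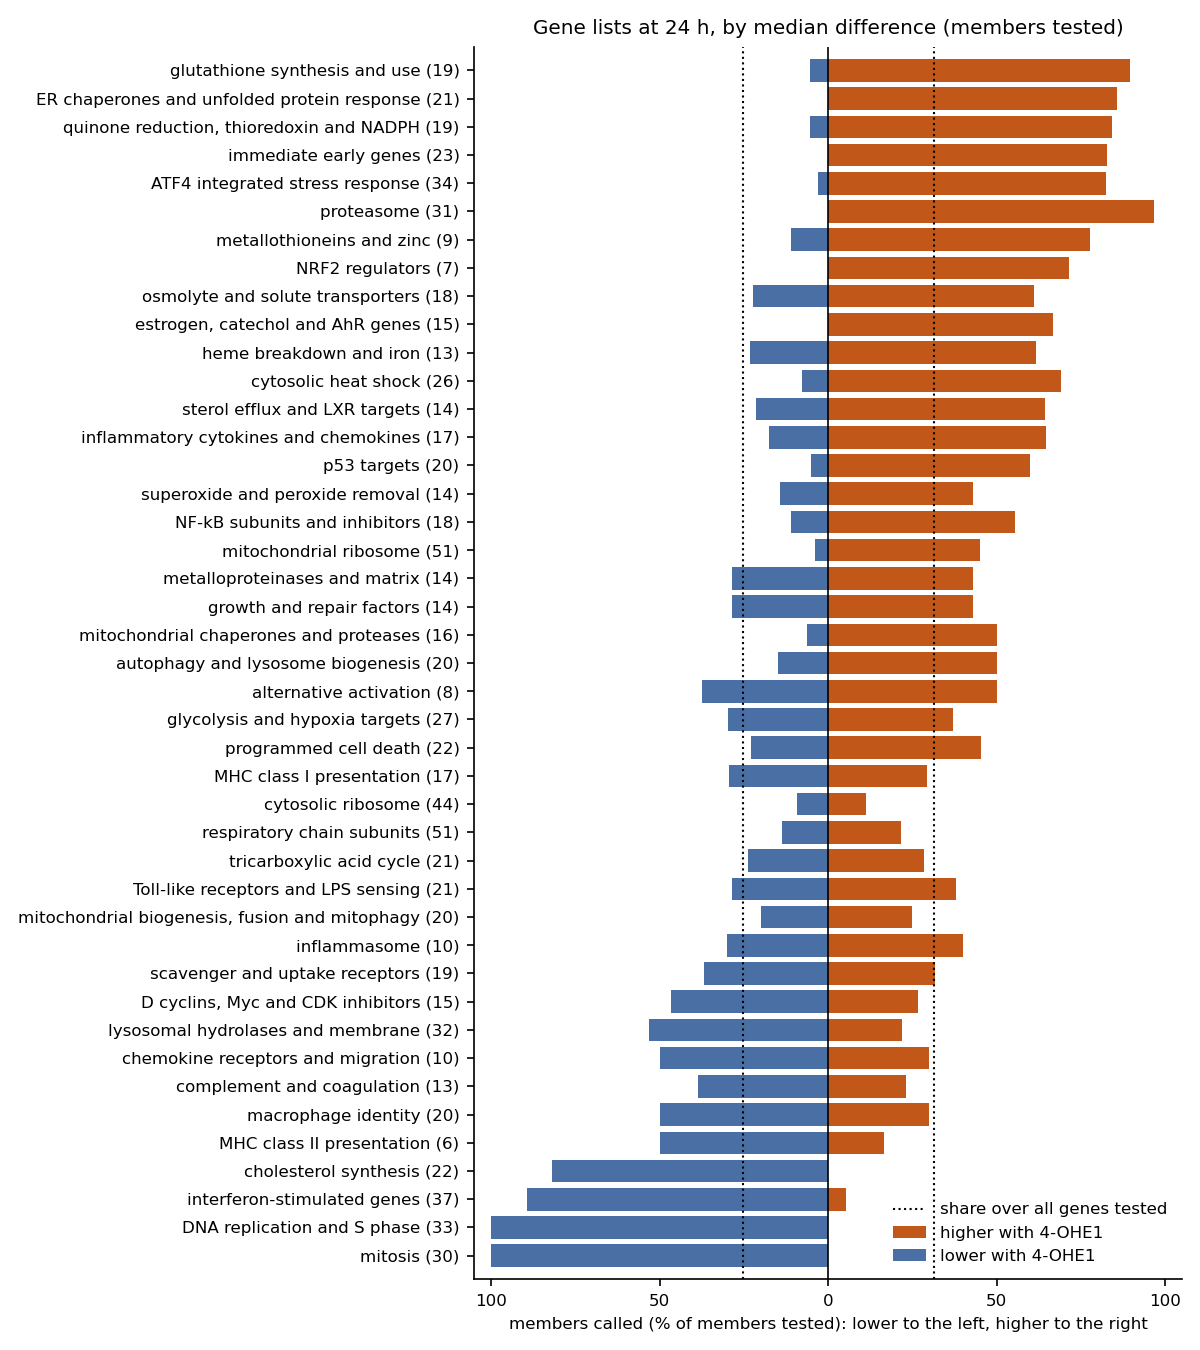
Share of the tested members of each gene list that were called higher (orange, to the right) or lower (blue, to the left) with 4-OHE1 at 24 h, in percent, ordered by the list's median difference. Dotted lines mark the shares over all genes tested, 31.5% higher and 25.2% lower. Glutathione genes stand at the top and mitosis genes at the bottom, where 30 of 30 members were lower.

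Genes of cell division were lower throughout. All 30 mitosis genes and all 33 genes of DNA replication and S phase were lower, with medians of -3.01 and -1.67, and 2 of the mitosis genes passed the filter through the control libraries only. Fam64a (also Pimreg), which has a role at the metaphase to anaphase transition, had 1.44, 1.79 and 2.21 FPKM with 4-OHE1, against 31.9, 32.0 and 32.6 FPKM in control. Its difference of -3.83 ± 0.12 was the largest fall among genes named by the rule. Mki67, encoding the proliferation antigen Ki-67, had 7.36, 6.53 and 9.48 FPKM with 4-OHE1, against 102, 95.9 and 93.2 FPKM in control (chromosome 7, 135689788 to 135716379, -3.57 ± 0.12). Ccnb2, a mitotic cyclin, had 5.25, 3.26 and 5.04 FPKM with 4-OHE1, against 61.8, 62.7 and 58.6 FPKM in control (chromosome 9, 70407689 to 70421554, -3.64 ± 0.15, adjusted p = 7.88e-07). In all 3 genes the lowest control library was far above the highest treated one. The mitotic kinase Plk1 (-3.38 ± 0.08), the spindle motor Kif11 (-3.39 ± 0.12) and Ube2c, which hands ubiquitin to mitotic cyclins (-3.25 ± 0.12), were lower too. The mitosis genes summed to 166 to 200 FPKM with 4-OHE1 and to 1200 to 1251 FPKM in control.

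In S phase genes, Rrm2, the ribonucleotide reductase subunit made in S phase, had 8.74, 7.08 and 10.2 FPKM with 4-OHE1, against 69.5, 67.4 and 66.6 FPKM in control (-2.91 ± 0.11). Its partner Rrm1 (-2.43 ± 0.09), thymidine kinase Tk1 (-2.68 ± 0.09) and the polymerase subunit Pole (-2.37 ± 0.09) were lower. Pcna, the sliding clamp and the most abundant member, averaged 104 ± 5.20 FPKM with 4-OHE1 and 161 ± 3.96 FPKM in control (-0.64 ± 0.05). Of 15 tested D cyclins, Myc genes and CDK inhibitors, 4 rose and 7 fell, and 1 passed the filter through the 4-OHE1 libraries only. Cdkn1c, encoding the CDK inhibitor p57, had 56.1, 67.7 and 52.5 FPKM with 4-OHE1, against 5.45, 5.21 and 5.28 FPKM in control (3.34 ± 0.09). Cdkn1a, encoding p21, averaged 255 ± 8.26 FPKM with 4-OHE1 and 193 ± 8.38 FPKM in control (0.40 ± 0.05), and cyclin D1, Ccnd1, averaged 124 ± 14.9 FPKM with 4-OHE1 and 228 ± 3.46 FPKM in control (-0.88 ± 0.08). Cdkn2c, encoding the inhibitor p18, was lower (-2.73 ± 0.11). Targets of p53 rose in 12 of 20 tested members, 11 of them under both scalings, and fell in 1 (2 with scaling), with a median of 0.34. Gadd45a rose by 2.06 ± 0.06, the pro-apoptotic Bbc3 by 1.55 ± 0.12 and Mdm2, the ubiquitin ligase of p53, by 0.94 ± 0.04. Programmed cell death genes went both ways, with 10 of 22 higher, 5 lower and a median of 0.09. The necroptosis kinase Ripk3 averaged 32.0 ± 0.758 FPKM with 4-OHE1 and 15.9 ± 1.76 FPKM in control (1.00 ± 0.08), and Bcl2l11, encoding the death protein BIM, rose by 0.94 ± 0.06.

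Many mitotic promoters carry CCAAT boxes, the letters bound by NF-Y, and the promoter of Ccnb2 is shown with its 3 copies in capitals, at 87, 54 and 21 bases before the start (chr9:70421505-70421804, GRCm38.p6, minus strand).
Ccnb2: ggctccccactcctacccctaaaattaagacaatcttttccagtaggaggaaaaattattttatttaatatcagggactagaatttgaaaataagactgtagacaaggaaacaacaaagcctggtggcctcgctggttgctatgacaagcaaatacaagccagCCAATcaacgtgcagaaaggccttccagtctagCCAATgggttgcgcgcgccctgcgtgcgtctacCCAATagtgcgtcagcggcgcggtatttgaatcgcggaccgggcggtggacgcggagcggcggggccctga
CCAAT, on either strand, stood in 38.9% of the promoters of genes tested, in 22 of 25 matched mitosis promoters and in 15 of 23 matched replication promoters. Its share was 37.5% among genes that rose and 43.2% among genes that fell. No match of one motif overlapped a match of another in the 4 promoters printed.

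Cholesterol synthesis genes, which follow the sterol-regulated transcription factor SREBP2, were lower in 18 of 22 tested members and higher in 0, with a median of -0.64. Fdft1, squalene synthase, had 18.9, 18.6 and 19.5 FPKM with 4-OHE1, against 44.7, 42.3 and 43.1 FPKM in control (-1.17 ± 0.05). The sterol carrier Stard4 (-1.50 ± 0.11) and Hmgcs1, an early enzyme of the pathway (-1.17 ± 0.07), were lower. Sterol efflux and LXR targets rose in 9 of 14 tested members, 8 of them under both scalings, and fell in 3. The exporters Abcg1 and Abca1 averaged 15.6 ± 1.20 FPKM with 4-OHE1 and 5.66 ± 0.298 FPKM in control, and 4.17 ± 0.509 FPKM with 4-OHE1 and 1.57 ± 0.111 FPKM in control. Their differences were 1.39 ± 0.08 and 1.17 ± 0.12. The receptor gene Nr1h3, encoding LXR alpha, rose by 0.73 ± 0.11. Glycolysis and hypoxia targets were divided, with 10 of 27 higher and 8 lower.

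The lists of respiratory chain, of tricarboxylic acid cycle, and of mitochondrial biogenesis, fusion and mitophagy had medians near that of all genes. Respiratory chain subunits rose in 11 of 51 tested members and fell in 7, with a median of 0.09. Without 4-OHE1 replicate 3 the higher ones were 23, and the lower ones were 3 or 4 without that library, 4-OHE1 replicate 1 or any control replicate. Mitochondrial ribosome genes rose in 23 of 51, or 19 under both scalings, and fell in 2. Their median of 0.22 (0.17 with scaling) stood above the 0.05 (0.00) of all genes. Mrps6 rose by 1.26 ± 0.09 and averaged 69.2 ± 4.49 FPKM with 4-OHE1 and 28.7 ± 3.44 FPKM in control. Tricarboxylic acid cycle genes rose in 6 of 21 members, 5 of them under both scalings, and fell in 5. For genes of mitochondrial biogenesis, fusion and mitophagy, 5 of 20 rose and 4 fell, 2 of the 20 passed the filter through the control libraries only, and the median of 0.03 turned to -0.02 with scaling. The mitophagy kinase Pink1 averaged 19.5 ± 1.61 FPKM with 4-OHE1 and 11.5 ± 0.605 FPKM in control (0.73 ± 0.08). Genes of the cytosolic ribosome rose in 5 of 44 and fell in 4, with a median of 0.09. The higher ones were 10 without 4-OHE1 replicate 3, 2 without replicate 1 or 2 and 3 without control replicate 2 or with scaling. Of the 44, 1 passed the filter through the 4-OHE1 libraries only. Of 14 tested genes for the removal of superoxide and peroxide 6 rose and 2 fell. Sod1 rose by 0.72 ± 0.10, catalase (Cat) by 0.72 ± 0.06 and the peroxiredoxin Prdx5 by 1.46 ± 0.09, while Prdx4, a peroxiredoxin of the ER, was lower (-0.75 ± 0.05).

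Interferon-stimulated genes, the antiviral program read at a low level in resting macrophages, were lower in 33 of 37 tested members and higher in 2 (1 without any one of the 4-OHE1 replicates), with a median of -0.77, and 11 of the 48 listed did not pass the filter. Of the 37, 5, Cxcl10 among them, passed through the control libraries only and 1 through the 4-OHE1 libraries only, and so were bound to differ. Cxcl10, a chemokine of this program, had 0.239, 0.299 and 0.0770 FPKM with 4-OHE1, against 4.45, 6.24 and 4.72 FPKM in control (-3.00 ± 0.18). Rtp4 had 1.84, 2.08 and 2.32 FPKM with 4-OHE1, against 12.2, 16.3 and 17.1 FPKM in control (-2.59 ± 0.14). Irf7, the transcription factor that amplifies interferon production, averaged 1.67 ± 0.172 FPKM with 4-OHE1 and 8.90 ± 1.19 FPKM in control (-2.11 ± 0.12), and Oasl2 was lower (-2.11 ± 0.12). The whole list summed to 659.9 to 699.5 FPKM in the 4-OHE1 libraries and 735 to 849 FPKM in control. Its most abundant member, Ifitm3, rose and averaged 376 ± 19.9 FPKM with 4-OHE1 and 254 ± 18.1 FPKM in control (0.57 ± 0.07).

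Inflammatory cytokines and chemokines passed the filter in 17 of 37 listed members. Of these, 2 (Ptgs2 and Saa3) passed through the 4-OHE1 libraries only and so were bound to differ. In all, 11 of the 17 rose, 10 under both scalings, while 3 fell. Ptgs2, the inducible cyclooxygenase, had 6.22, 5.73 and 6.21 FPKM with 4-OHE1, against 0.978, 0.403 and 0.726 FPKM in control (2.47 ± 0.18). Cxcl2, a chemokine that draws neutrophils, had 9.56, 9.41 and 9.44 FPKM with 4-OHE1, against 1.95, 1.50 and 1.20 FPKM in control (2.30 ± 0.13). Tnf averaged 23.5 ± 3.36 FPKM with 4-OHE1 and 18.0 ± 0.949 FPKM in control (0.37 ± 0.10, adjusted p = 0.0133). Ccl2, a chemokine for monocytes, went the other way, with 56.2, 63.5 and 76.0 FPKM with 4-OHE1, against 140.5, 134 and 142 FPKM in control (-1.09 ± 0.10). Spp1, osteopontin, the most abundant member, averaged 2009 ± 56.1 FPKM with 4-OHE1 and 1207 ± 52.3 FPKM in control (0.74 ± 0.05). The acute phase gene Saa3 had 7.15, 5.14 and 1.77 FPKM with 4-OHE1, against 0.714, 0.650 and 0.820 FPKM in control, a wide spread among treated libraries (1.91 ± 0.39). The cytokine genes Il1b, Il6 and Il10 did not pass the filter and were not tested. Il1b had 1.82, 1.22 and 0.443 FPKM with 4-OHE1, against 0, 0.255 and 0.322 FPKM in control. Il6 had 0, 0 and 0.224 FPKM with 4-OHE1, against 0, 0.150 and 0 FPKM in control. Il10 had 0.605, 0.944 and 0.783 FPKM with 4-OHE1, against 1.21, 0.853 and 1.16 FPKM in control. The interleukin 36 gene Il1f9 had 7.24, 8.52 and 7.23 FPKM with 4-OHE1, against 0, 0.0520 and 0 FPKM in control, and its 3 control libraries held 1 read in all against 447 with 4-OHE1, so its difference of 3.98 ± 0.13 is no bound on the change. Il1f9 too passed the filter through the 4-OHE1 libraries only.

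LPS sensing genes went both ways, with 8 of 21 tested members higher, 7 of them under both scalings, and 6 lower. Cd14, the LPS co-receptor, had 339, 349.7 and 302 FPKM with 4-OHE1, against 104, 90.3 and 95.6 FPKM in control (1.77 ± 0.07). Ticam2, an adaptor of TLR4, rose by 1.10 ± 0.12, while the nucleic acid receptor genes Tlr8 and Tlr7 were lower (-1.24 ± 0.16 and -0.96 ± 0.16). NF-kB subunits and inhibitors rose in 10 of 18 members, 8 of them under both scalings, and fell in 2 (1 without control replicate 1). Nfkbiz, an atypical inhibitor that also acts as a coactivator, rose by 1.69 ± 0.13. Of 17 genes of MHC class I presentation 5 rose and 5 fell, with the heavy chain H2-D1 at 0.81 ± 0.08 and beta-2 microglobulin, B2m, at -0.28 ± 0.05. Of 6 tested MHC class II genes 3 fell and 1 rose. The beta chain H2-Eb1 averaged 3.07 ± 0.220 FPKM with 4-OHE1 and 7.24 ± 0.616 FPKM in control (-1.12 ± 0.09). Inflammasome genes rose in 4 of 10 and fell in 3, with the pore protein gene Gsdmd at 0.76 ± 0.08 and the adaptor Pycard at -0.69 ± 0.09.

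The macrophage identity list held 6 of 20 members higher and 10 lower, with a median of -0.22. Adgre1, encoding the surface marker F4/80, had 128, 122 and 133 FPKM with 4-OHE1, against 225, 232 and 229.5 FPKM in control (-0.84 ± 0.05). The fractalkine receptor Cx3cr1 had 7.10, 5.95 and 6.42 FPKM with 4-OHE1, against 27.9, 26.5 and 24.2 FPKM in control (-1.93 ± 0.08). The adhesion receptor Siglec1 (-1.70 ± 0.12) and Cd33 (-1.29 ± 0.07) were lower. Csf1r, the M-CSF receptor, averaged 647 ± 13.6 FPKM with 4-OHE1 and 513 ± 13.6 FPKM in control (0.33 ± 0.05), and lysozyme, Lyz2, the most abundant of the list, averaged 7369.8 ± 299 FPKM with 4-OHE1 and 4547 ± 299 FPKM in control (0.70 ± 0.07). Scavenger and uptake receptors were divided, with 6 of 19 tested members higher, 5 under both scalings, and 7 lower. Among them the C-type lectin Clec4n had 19.4, 21.6 and 21.7 FPKM with 4-OHE1, against 3.66, 2.90 and 3.56 FPKM in control (2.47 ± 0.10). Axl, a receptor for dying cells, averaged 5.16 ± 0.286 FPKM with 4-OHE1 and 15.5 ± 0.493 FPKM in control (-1.50 ± 0.07). The mannose receptor Mrc1, a marker of alternative activation, averaged 12.8 ± 2.17 FPKM with 4-OHE1 and 36.6 ± 2.29 FPKM in control (-1.49 ± 0.11).

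Surface proteases and matrix enzymes changed in both directions. Mmp12, the macrophage elastase, had 419, 408 and 463 FPKM with 4-OHE1, against 112, 112 and 119 FPKM in control (1.91 ± 0.06). Mmp13, a collagenase, averaged 16.5 ± 0.512 FPKM with 4-OHE1 and 2.53 ± 0.304 FPKM in control (2.49 ± 0.09). Plau, the urokinase, averaged 92.9 ± 10.8 FPKM with 4-OHE1 and 306 ± 3.04 FPKM in control (-1.72 ± 0.08), while its receptor Plaur rose by 1.32 ± 0.08. The complement gene C1qc was lower (-0.92 ± 0.05). Of the growth and repair factors 6 of 14 tested members rose, 3 without 4-OHE1 replicate 1 or 2, and 4 fell. Of the 14, 3, Hbegf among them, passed the filter through the 4-OHE1 libraries only and so were bound to differ. Hbegf, an EGF receptor ligand, had 6.38, 7.35 and 5.87 FPKM with 4-OHE1, against 0.0630, 0.0720 and 0.273 FPKM in control (3.48 ± 0.16), Igf1 averaged 24.8 ± 2.33 FPKM with 4-OHE1 and 56.3 ± 2.53 FPKM in control (-1.17 ± 0.08), and Vegfa rose by 0.71 ± 0.11.

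Immediate early genes, which usually respond within an hour of a signal, were still higher at 24 h in 19 of 23 tested members and lower in 0, with a median of 0.65. Of the 23, 1 passed the filter through the 4-OHE1 libraries only. Ier3 had 77.4, 95.5 and 74.4 FPKM with 4-OHE1, against 6.01, 5.65 and 8.72 FPKM in control (3.52 ± 0.16). The phosphatase gene Dusp1 rose by 2.32 ± 0.10 and the AP-1 gene Fosl1 by 2.17 ± 0.09. Of 15 tested genes of estrogen, catechol and aryl hydrocarbon receptor biology, 1 passed the filter through the 4-OHE1 libraries only. Of the 15, 10 rose and 0 fell (1 with scaling). Apart from Nqo1 their rises were small, with the receptor repressor Ahrr at 0.70 ± 0.11 and the glucuronosyl transferase Ugt1a6a at 0.54 ± 0.04. Osmolyte and solute transporters rose in 11 of 18 and fell in 4. Slc6a12, the betaine and GABA transporter, had 76.5, 68.7 and 57.0 FPKM with 4-OHE1, against 4.09, 3.19 and 2.75 FPKM in control (chromosome 6, 121343076 to 121365773, 4.15 ± 0.14). Slc6a9, the glycine transporter, averaged 17.6 ± 1.62 FPKM with 4-OHE1 and 1.95 ± 0.224 FPKM in control (2.89 ± 0.10). Metallothioneins and zinc transporters rose in 7 of 9, 6 under both scalings, and fell in 1, with Mt2 at 2.16 ± 0.13 and Mt1 at 0.74 ± 0.14.

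Some of the largest rises fell in none of the lists. Fxyd2, the gamma regulator of the sodium pump, had 136, 158 and 101 FPKM with 4-OHE1, against 8.03, 6.65 and 5.47 FPKM in control (chromosome 9, 45406077 to 45410278, 4.19 ± 0.18). Procr, the endothelial protein C receptor, had 141, 173 and 125 FPKM with 4-OHE1, against 10.1, 9.11 and 9.13 FPKM in control (chromosome 2, 155751217 to 155755478, 3.87 ± 0.11). In both, replicate 2 was the highest and replicate 3 the lowest of the treated libraries. The rule that named them asked for groups that do not overlap. Tlcd2 rose by 3.74 ± 0.16. Adh7, an alcohol dehydrogenase, had 6.29, 6.80 and 5.78 FPKM with 4-OHE1, against 0, 0.0410 and 0 FPKM in control, with 1 read over the control libraries. Tlcd2 and Adh7 passed the filter through the 4-OHE1 libraries only and so were bound to differ. Rpph1, the RNA of ribonuclease P, had 40.9, 85.5 and 29.6 FPKM with 4-OHE1, against 3.24, 2.10 and 4.32 FPKM in control (3.72 ± 0.37), and its treated libraries spread widely. It is a noncoding RNA, read here in libraries of selected mRNA.

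The 24 h effect was then set against that of 6 h, where the control and 4-OHE1 libraries are separate ones. At 6 h, 2361 of 10713 genes tested were higher and 5125 lower (69.9% in either direction), with the median gene at -0.22, or 3606 and 3537 (66.7%) with scaling. Of 10240 genes tested at both times, 1269 were higher at both and 1970 lower at both. Another 845 were higher at 24 h and lower at 6 h, and 213 the reverse. Those that were higher at both made 39.5% of the genes higher at 24 h and 57.8% of those higher at 6 h. With scaling, 1627 were higher and 1715 lower at both times, 353 were higher at 24 h and lower at 6 h, and 462 the reverse. The difference between the 2 effects, 24 h minus 6 h, was itself tested in the 12 libraries. It was positive in 4423 of 10798 genes (41.0%) and negative in 1971 (18.3%), with the median gene at 0.22. With scaling the median was -0.02 and the counts were 2627 (24.3%) and 3136 (29.0%), so the balance of positive and negative differences depends on the scaling, and each gene below is given both ways.

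Several genes with large rises at 6 h differed little from control at 24 h. Hmox1 differed by 0.46 at 24 h against 3.22 at 6 h, when it averaged 10127 ± 284 FPKM with 4-OHE1 and 1087 ± 73.8 FPKM in control. The effect at 24 h minus that at 6 h was -2.76 ± 0.11 (-3.03 with scaling, as for all values in parentheses that follow). Gclc at 6 h averaged 351 ± 10.7 FPKM with 4-OHE1 and 41.6 ± 0.771 FPKM in control, and its effect changed by -2.86 ± 0.08 (-3.13). Rgs1, a regulator of G protein signalling, averaged 66.4 ± 5.22 FPKM with 4-OHE1 and 57.8 ± 2.41 FPKM in control at 24 h, against 723 ± 67.6 FPKM with 4-OHE1 and 53.5 ± 3.34 FPKM in control at 6 h. At 24 h its difference of 0.20 ± 0.07 was no longer called with scaling (adjusted p = 0.101), without control replicate 1 or 2 (0.118 and 0.0925) or without 4-OHE1 replicate 3 (0.0757, with a difference of 0.13). Its effect changed by -3.55 ± 0.11 (-3.81). Changes of the same sign were found for Atf3 at -2.89 ± 0.13 (-3.15), Gdf15, a secreted stress factor, at -3.08 ± 0.15 (-3.34), Plk2, a stress-induced kinase, at -2.92 ± 0.10 (-3.18), and Tnf at -2.11 ± 0.14 (-2.37). The 7 NRF2 regulators changed by a median of -1.22 (-1.48), negative in 7 of 7 under both scalings, and the ATF4 list by -0.81 (-1.07), negative in 29 of 34 (31). Fabp4 and Akap2 were lower at 24 h and higher at 6 h. Fabp4, a fatty acid binding protein, averaged 21.9 ± 4.28 FPKM with 4-OHE1 and 32.6 ± 2.10 FPKM in control at 24 h, against 125 ± 16.6 FPKM with 4-OHE1 and 24.7 ± 2.24 FPKM in control at 6 h, a change of -2.90 ± 0.18 (-3.16). Akap2, which shares its exons with Pakap in the annotation so that their reads cannot be told apart, differed by -1.35 at 24 h and 1.85 at 6 h, a change of -3.20 ± 0.09 (-3.46).

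Other genes rose late. Nqo1 differed by 3.02 at 24 h and 0.68 at 6 h, when it averaged 68.2 ± 6.84 FPKM with 4-OHE1 and 42.5 ± 4.18 FPKM in control, and its effect was larger at 24 h by 2.35 ± 0.13 (2.08). Mgst2 at 6 h averaged 6.66 ± 1.63 FPKM with 4-OHE1 and 8.11 ± 1.31 FPKM in control, and its effect grew by 3.32 ± 0.30 (3.07). Slc6a12 at 6 h averaged 6.36 ± 0.895 FPKM with 4-OHE1 and 4.23 ± 0.862 FPKM in control, with a growth of 3.60 ± 0.23 (3.35). Fxyd2 grew by 3.09 ± 0.31 (2.83). The antioxidant genes Nqo1 and Gclc thus changed in opposite directions between the times. The chaperones Hyou1 and Creld2 differed by 0.24 and 0.11 at 6 h and grew by 1.10 ± 0.06 (0.83) and 1.10 ± 0.12 (0.84), while Hspa5 differed by 1.86 at 24 h and 1.83 at 6 h. Its time difference was 0.03 ± 0.06 (adjusted p = 0.713), and with scaling it was negative and called, at -0.24 (adjusted p = 0.00705). The time difference was positive in 14 of 21 genes of the ER list (12 with scaling) and negative in 3 (5).

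A further set was higher at 24 h and lower at 6 h. C5ar1, the receptor of complement fragment C5a, averaged 252 ± 12.7 FPKM with 4-OHE1 and 160.0 ± 4.14 FPKM in control at 24 h, against 48.7 ± 2.20 FPKM with 4-OHE1 and 187 ± 6.94 FPKM in control at 6 h, a change of 2.58 ± 0.07 (2.32). The nuclear long noncoding RNA Neat1 averaged 199 ± 34.5 FPKM with 4-OHE1 and 81.2 ± 4.64 FPKM in control at 24 h, against 26.2 ± 1.15 FPKM with 4-OHE1 and 83.9 ± 11.7 FPKM in control at 6 h. Its effect changed by 2.93 ± 0.16 (2.67). At both times the groups of these genes lay well apart, on opposite sides. Tifab changed by 3.26 ± 0.14 (3.05), the retinoic acid receptor Rarg by 2.97 ± 0.19 (2.75), Spint1, a protease inhibitor, by 2.98 ± 0.20 (2.78), and Gprc5c, an orphan receptor, by 3.59 ± 0.21 (3.41). The sterol exporter Abcg1 changed by 2.18 ± 0.10 (1.94).

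Falls in division genes were larger at 24 h, with a median change of -1.26 (-1.48) for mitosis genes, negative in 29 of 30 under both scalings, and of -0.66 (-0.92) for replication genes, negative in 24 of 33 (28). Ccnb2 at 6 h averaged 15.5 ± 0.560 FPKM with 4-OHE1 and 32.5 ± 2.21 FPKM in control, and its effect changed by -2.60 ± 0.18 (-2.85). Ccnd1 went against this, at -0.88 at 24 h and -2.68 at 6 h, a change of 1.80 ± 0.10 (1.53). For interferon-stimulated genes the change had a median of -0.06 (-0.28), positive in 8 of 36 (6) and negative in 6 (12). Lysosomal genes changed by a median of -0.43 (-0.70), negative in 24 of 32 (27).

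**Figure D4:**
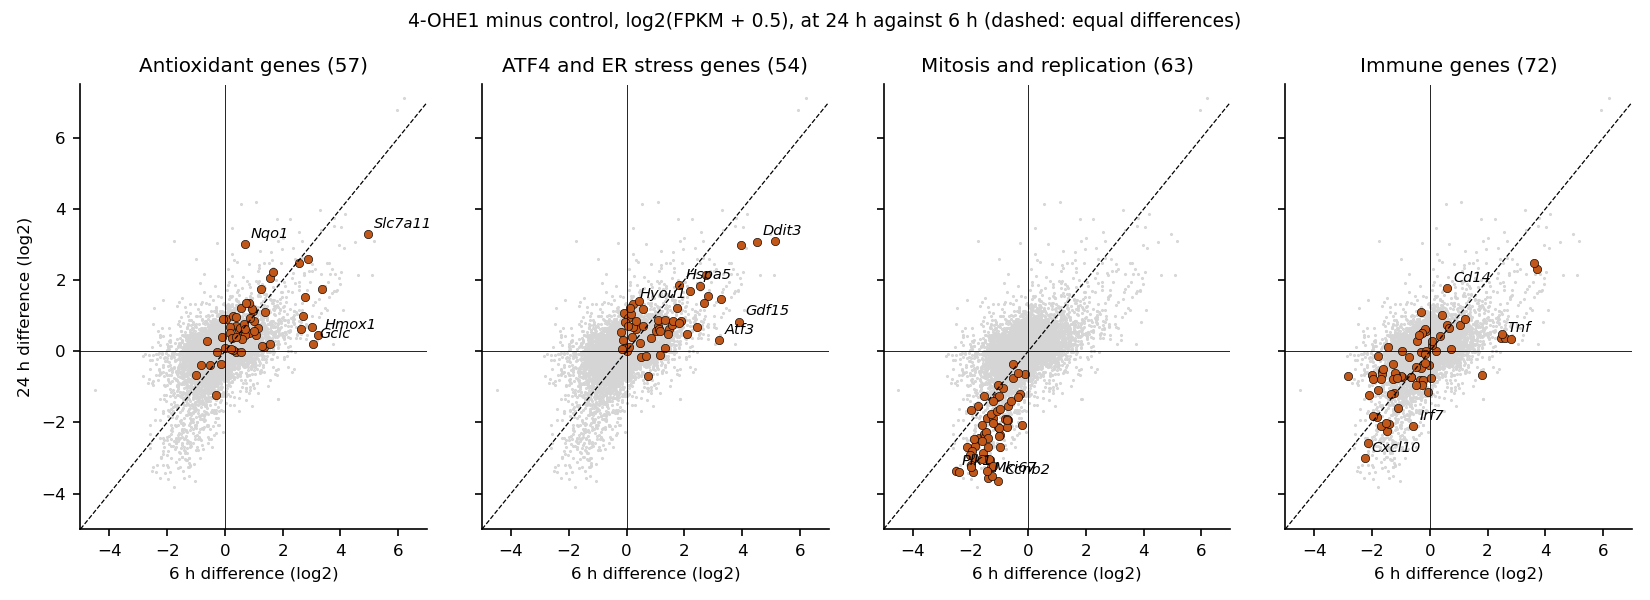
Difference of 4-OHE1 minus control at 24 h (vertical axis) against that at 6 h (horizontal axis), both in log2(FPKM + 0.5), for genes tested at both times with the same transcript. Grey points are all such genes, orange points the members of the lists named above each panel, and the dashed line marks equal differences. Hmox1 and Gclc lie far below that line, Nqo1 above it, and most mitosis and replication genes below it.

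Whether the 24 h effect was the same under LPS was tested as the difference between the effects with and without it, in the 12 libraries of 24 h. This difference was positive in 3089 of 11185 genes (27.6%) and negative in 1753 (15.7%), with the median gene at 0.10. With scaling it was positive in 2403 (21.5%) and negative in 2416 (21.6%), with a median of -0.01. The difference was positive in 30 of 30 mitosis genes and in 33 of 33 replication genes, with medians of 3.05 and 2.15, and in as many with scaling. Of these, 10 mitosis and 6 replication genes were under 1 FPKM in all 6 libraries with LPS, where little fall can be read, and for them the difference mostly restates the fall without LPS. Ccnb2 averaged 0.950 ± 0.0933 FPKM with LPS+4-OHE1 and 0.382 ± 0.229 FPKM with LPS, both near 0, and the difference of effects was 4.39 ± 0.27 (4.37 with scaling). Among the LPS libraries 17 mitosis genes were tested, of which 7 were higher with LPS+4-OHE1 than with LPS and 1 lower (median 0.40). Of 24 replication genes tested there, 10 were higher and 1 lower (median 0.31). These counts are unscaled, and the share of all genes called there is not given. Median-of-ratios factors were 0.965 to 0.978 for LPS+4-OHE1 and 0.825 to 0.854 for LPS, so a shift toward higher values is shared by many genes. How much of these medians it makes was not tested. Mki67 was the 1 mitosis gene that fell under LPS, with 2.02 ± 0.323 FPKM with LPS+4-OHE1 and 14.2 ± 0.990 FPKM with LPS. Its effect under LPS was -2.55 and its difference of effects 1.02 ± 0.17 (0.88), below the median of the list. Pcna was higher with LPS+4-OHE1 than with LPS, at 84.9 ± 8.08 FPKM with LPS+4-OHE1 and 31.6 ± 1.49 FPKM with LPS, where it was lower with 4-OHE1 alone, a difference of 2.05 ± 0.10 (1.92).

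Rises that 4-OHE1 gave alone were smaller or turned to falls under LPS in several genes. Slc7a11 averaged 111 ± 9.28 FPKM with LPS+4-OHE1 and 100.1 ± 22.6 FPKM with LPS, an effect of 0.17 under LPS, and the difference of effects was -3.12 ± 0.19 (-3.22). Cd14 averaged 969.6 ± 90.5 FPKM with LPS+4-OHE1 and 1109.8 ± 79.6 FPKM with LPS (-1.97 ± 0.12, -2.09 with scaling). Prdx5 averaged 708 ± 84.5 FPKM with LPS+4-OHE1 and 2089.7 ± 219 FPKM with LPS, an effect of -1.56 under LPS (-3.02 ± 0.15, -3.15). ER genes had a negative difference in 18 of 21 members and a positive one in 1 (19 and 0 with scaling), with a median of -0.78, and for Hspa5 it was -1.13 ± 0.06 (-1.25). For Nqo1, which averaged 365 ± 25.1 FPKM with LPS+4-OHE1 and 68.9 ± 3.82 FPKM with LPS, it was -0.63 ± 0.11 (-0.75). Inflammatory genes gave a negative difference in 13 of 17 members tested at 24 h without LPS (14 with scaling), with a median of -1.26. Ptgs2 averaged 163 ± 46.3 FPKM with LPS+4-OHE1 and 362 ± 71.4 FPKM with LPS (-3.65 ± 0.30, -3.74). Saa3 averaged 106 ± 36.2 FPKM with LPS+4-OHE1 and 25280.0 ± 2946 FPKM with LPS (-9.86 ± 0.51, -9.97). Gclc went the other way, with 81.0 ± 3.34 FPKM with LPS+4-OHE1 and 15.2 ± 0.441 FPKM with LPS, and its effect under LPS was larger by 2.18 ± 0.09 (2.06). Interferon-stimulated genes were lower under LPS too, in 30 of 37 members with LPS+4-OHE1 than with LPS, and higher in 4 (median -0.50). These counts too are unscaled and lack the share of all genes called. The difference of effects of the interferon-stimulated genes was positive in 16 of 37 members and negative in 3 (14 and 7 with scaling). Cxcl10 averaged 30.5 ± 1.19 FPKM with LPS+4-OHE1 and 81.8 ± 4.00 FPKM with LPS, an effect of -1.41 under LPS. Its difference of effects was 1.59 ± 0.18 (1.33).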

How the data were processed

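RNA was sequenced from selected mRNA, and the authors made FPKM values with HOMER per the file headers, counting reads over exons of a single transcript for each gene (mm10), per length and library depth and without scaling between libraries. STAR, HOMER, DESeq2 and edgeR stand in the submitters' processing notes, but their versions and the use of strand in counting are not given in the sources used here. The log2 fold changes and p-values of the authors' deposited table, made by them from raw exon counts per the file headers, served as an alternative only.

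Replicates were taken from the labels. Differences in log2(FPKM + 0.5) were tested with limma 3.58.1 (R 4.3.3, empirical Bayes with trend, Benjamini-Hochberg) over genes that reached 1 FPKM in 3 libraries, fitted on 6 libraries at 24 h and on 12 for differences with time or LPS. The 1114 genes listed with another transcript at 6 h were left out of comparisons with time. Median-of-ratios scaling was the main alternative. Others were a pseudocount of 0.1 or 1, no filter or 5 FPKM, a robust fit, a replicate block, each library left out, a shared fit, and limma voom on whole reads, which 100.0% of the values gave back within 0.1 read at depths of 9288704 to 13339193 reads. The fit was tested on simulated data. Named genes were the 15 largest rises and falls with groups that do not overlap and a mean of 5 FPKM, up to 5 called members and the most abundant member of each list, benchmark genes, and the 8 largest differences with time each way. Not all genes meeting the rule are printed, and some markers were added beside them. The comparison, its gene lists and its tests were chosen with earlier results of these data known. Promoters are RefSeq windows matched by symbol. Counts on overlapping or near-identical genes are uncertain. Some genes are not reported here.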

Additional observations from a re-analysis of the deposited data

Results flagged for a closer look

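The 24 h effect of 4-OHE1 differed from the 6 h effect, by the limma test of the difference itself over 12 libraries, in the genes named in the report for that comparison. All values here are log2 differences, 24 h minus 6 h. Genes that were higher at 6 h and had a smaller effect at 24 h were Hmox1 (-2.76 ± 0.11), Gclc (-2.86 ± 0.08), Atf3 (-2.89 ± 0.13), Gdf15 (-3.08 ± 0.15), Plk2 (-2.92 ± 0.10), Rgs1 (-3.55 ± 0.11) and Tnf (-2.11 ± 0.14). The lipid carrier gene Fabp4 (-2.90 ± 0.18), the anchor protein gene Akap2 (-3.20 ± 0.09) and the mitotic cyclin gene Ccnb2 (-2.60 ± 0.18) had a more negative effect at 24 h. Genes with a more positive effect at 24 h were the enzymes Nqo1 (2.35 ± 0.13) and Mgst2 (3.32 ± 0.30), the transport genes Slc6a12 (3.60 ± 0.23), Fxyd2 (3.09 ± 0.31) and Abcg1 (2.18 ± 0.10), and the ER genes Hyou1 (1.10 ± 0.06) and Creld2 (1.10 ± 0.12). The same held for the receptor genes C5ar1 (2.58 ± 0.07), Rarg (2.97 ± 0.19) and Gprc5c (3.59 ± 0.21), and for Neat1 (2.93 ± 0.16), Tifab (3.26 ± 0.14), Spint1 (2.98 ± 0.20) and Ccnd1 (1.80 ± 0.10).

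The 24 h effect with LPS differed from that without, by the same kind of test over the 12 libraries of 24 h. The difference of effects was negative for the acute phase gene Saa3 (-9.86 ± 0.51), the cyclooxygenase gene Ptgs2 (-3.65 ± 0.30), the cystine importer Slc7a11 (-3.12 ± 0.19), the peroxiredoxin Prdx5 (-3.02 ± 0.15), the LPS co-receptor Cd14 (-1.97 ± 0.12), the ER chaperone Hspa5 (-1.13 ± 0.06) and Nqo1 (-0.63 ± 0.11). It was positive for Ccnb2 (4.39 ± 0.27, near 0 FPKM in both groups with LPS), Mki67 (1.02 ± 0.17), Gclc (2.18 ± 0.09), Pcna (2.05 ± 0.10) and Cxcl10 (1.59 ± 0.18). Groups of 3 are too small for a search for single outlying libraries.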

How the results depend on the processing

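The counts of genes called at 24 h (3400 higher and 2721 lower) stayed within 1.5 times the reported ones under every alternative run: 2987 and 3079 with median-of-ratios scaling, 3576 and 2747 with no filter, 2859 and 2172 with a filter of 5 FPKM, 3443 and 2912 with limma voom on recovered reads, 3292 and 2572 in a shared fit of the 12 libraries of 24 h, and 2557 and 2826 in the authors' deposited comparison. Leaving out 1 library gave 2819 to 3294 higher and 2149 to 2755 lower. Deviations of same-numbered libraries from their group means correlated at 0.03, -0.04 and -0.11. With 3 libraries per group this cannot show whether they were paired. A fit with the replicate number as a block called 3158 and 2539. For the 24 h minus 6 h difference, scaling gave 2627 positive and 3136 negative genes in place of 4423 and 1971. For the difference with LPS it gave 2403 and 2416 in place of 3089 and 1753. The genes named for the time and LPS differences kept their direction and call under every alternative run except Hspa5, whose time difference of 0.03 was not called and was -0.24 and called with scaling (adjusted p = 0.00705). Of the genes named at 24 h, Gclc, Nfe2l2, Atf3 and Rgs1 lost their call under some (Gclc and Nfe2l2 also with the block, adjusted p = 0.0646 and 0.0978, and in the authors' table, 0.107 and 0.357). Gclc lost it with no filter too (0.0506), and Nfe2l2 in the shared fit (0.0698). Rgs1 also lost it with no filter (0.0544), in the shared fit (0.334) and in the authors' table (0.166). Fth1, not called, had a difference of -0.02 with scaling and -0.01 in the authors' table, and from -0.01 without 4-OHE1 replicate 2 to 0.07 without replicate 3. The causes were not tested. Genes seen in treated libraries only had no value without 1 of those libraries, where they no longer passed the filter. Depth limits genes under about 1 FPKM, and 3 libraries per group limit every test.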

Other observations

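Further gene groups at 24 h went in both directions. Of 18 genes of chemokine receptors and migration 10 passed the filter, and 3 of these rose and 5 fell. The chemokine receptor Ccr1 had 24.6, 22.9 and 27.5 FPKM with 4-OHE1, against 10.4, 11.4 and 11.4 FPKM in control (1.14 ± 0.08), while the integrin chain Itga4 averaged 11.5 ± 2.43 FPKM with 4-OHE1 and 22.1 ± 0.223 FPKM in control (-0.94 ± 0.13). Of 20 genes of alternative activation 8 passed the filter, and 4 of these rose and 3 fell. They included the transcription factor Klf4, with 32.0, 33.0 and 29.3 FPKM with 4-OHE1, against 15.0, 13.5 and 12.5 FPKM in control (1.18 ± 0.08), the cytokine signalling inhibitor Socs1, with 2.59, 3.50 and 3.56 FPKM with 4-OHE1, against 1.48, 0.912 and 1.15 FPKM in control (1.15 ± 0.17), and the lectin Clec10a at 1.06 ± 0.12. These 3 were higher with 4-OHE1, while Mrc1 of the same list was lower.

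Among hypoxia targets Ndrg1 was higher (1.11 ± 0.07), and so was the collagen hydroxylase P4ha2 (0.88 ± 0.07). The phagosomal metal transporter Slc11a1 averaged 320.1 ± 19.5 FPKM with 4-OHE1 and 125 ± 2.17 FPKM in control (1.35 ± 0.05), and the heme transporter Slc48a1 rose by 0.63 ± 0.06. The beta-glucan receptor Clec7a averaged 25.8 ± 3.86 FPKM with 4-OHE1 and 10.5 ± 2.01 FPKM in control (1.26 ± 0.15), and the scavenger receptor Stab1 averaged 27.6 ± 1.73 FPKM with 4-OHE1 and 61.3 ± 1.14 FPKM in control (-1.14 ± 0.06). Vegfb was lower (-1.20 ± 0.07) where Vegfa of the same list was higher. The metalloproteinase inhibitor Timp2 was lower (-1.08 ± 0.05), and so was Idh3a, a subunit of the mitochondrial isocitrate dehydrogenase (-0.62 ± 0.09).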
